A study of Mus musculus with 6 samples.

Results

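Odf1, Odf2, Odf3 and Odf4, named for the outer dense fibres of the sperm tail, and the tektin genes Tekt1, Tekt2, Tekt3, Tekt4 and Tekt5 were followed in the testes of mice lacking Prss54 and of wild type mice. They were taken as every gene-detecting probe whose gene name in the scanner files is one of these 9 symbols, which gave 14 of the 41174 probes and 9 of the 27376 gene names on the array. Odf2 had 4 probes, Odf1 and Tekt1 had 2 each, and the other 6 genes had 1 each. All 14 probes were well above background on all 6 arrays, so all of them were tested.

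The sperm tail is built around an axoneme, a ring of microtubule doublets that bend against each other. Tektins are coiled-coil proteins that run as filaments along the inside of these doublets, in cilia as well as in sperm tails. Outer dense fibres are stiff cables that lie outside the doublets along much of the tail of mammalian sperm, and their proteins are made in spermatids, the haploid cells that turn into sperm.

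Testis RNA was measured from 3 male mice in which Prss54 was knocked out (Prss54KO) and 3 wild type males (WT), with 1 single-colour Agilent array per mouse and 0.5 ug of RNA labelled with Cy3. Mice of both genotypes were 6 to 8 weeks old and had a mixed 129Sv/C57BL/6 background. The labels say neither which part of Prss54 was removed nor by what means. They name no litter, and the p-values judge differences against the spread between these 6 mice, taken as independent. The arrays stood on 3 slides, with Prss54KO replicate 3 on slide 1, Prss54KO replicates 1 and 2 and WT replicate 3 on slide 2, and WT replicates 1 and 2 on slide 3. Only slide 2 held both genotypes, so genotype and slide are largely confounded.

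Prss54, a gene of the serine protease family, was lower in the Prss54KO testes on its single probe. Its scaled signal was 7300, 9455 and 8253 intensity units in Prss54KO replicates 1, 2 and 3, against 23202, 25194 and 25265 in WT replicates 1, 2 and 3. Scaled signal is the processed spot brightness after each array's 75th percentile was brought to a common value of 1703. The log2 difference, Prss54KO minus WT, was -1.57 (SE 0.10), with the genotypes apart on every array. In limma's fit across 28913 probes its adjusted p was 0.121, short of the 0.05 threshold, although its unadjusted p was the smallest of all probes. A probe outside the deleted part would not be a check of the genotype labels. The tissue label was checked against markers. All 9 spermatid, all 8 spermatocyte and all 8 Sertoli cell markers looked for were well above background on 3 or more arrays. So were 5 of 8 spermatogonial marker names and 6 of 7 Leydig cell markers, the remaining names not being found. Of the spermatogonial names, Ngn3 was not found but is another name of Neurog3, which was. That mark is a weak check of the tissue, because 28913 of all 41174 probes met it. So did all 4 markers of motile cilia outside the testis that were on the array, among them Scgb1a1 on 6 arrays and Sftpc on 4. Of the 7 epididymal markers on the array, Lcn5, Lcn8, Crisp1 and Gpx5 were not well above background on any array, while Lcn9, Lcn12 and Defb41 were on all 6. Defb41 had a log2 difference of 0.20 (SE 0.06, limma's unadjusted p 0.0125, adjusted p 0.999). The other marker with an unadjusted p under 0.05 was the endothelial Cdh5, at -0.19 (SE 0.05, limma's unadjusted p 0.0138, adjusted p 0.999). Of the 5 endothelial markers tested, 1 lay above 0 and 4 below, with a median of -0.16.

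No outer dense fibre or tektin probe passed a test for a difference between the genotypes. With limma, 0 of the 14 passed an adjusted p of 0.05 (adjusted p 0.999 for each), where 0% of all 28913 tested probes passed. At an unadjusted p under 0.05 the count was also 0 of 14, against 3.24% of all probes, 1.73% higher and 1.5% lower. The genotypes overlapped on each of the 14, while they did not overlap on 7.77% of all probes. The unadjusted p-values in limma's fit lay between 0.148 and 0.935.

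The fit without a slide term also gives an interval for how far each of these transcripts could have moved. Log2 differences lay between -0.29 and 0.10, with standard errors of 0.05 to 0.22, and the median size of the difference was 0.055 over the 14 probes and 0.058 over all probes. For 13 of the 14, the 95% interval of this fit, taken probe by probe, stayed within a 1.5-fold change in either direction. Intervals of fits with the slide or with a mouse left out were not compared with that bound. The exception was 1 probe of Odf2. Of the 14 differences, 8 were above 0, against 52.8% of all probes, and their median was 0.02 where that of all probes was 0.01. The tektin probes had 5 of 6 above 0 and a median of 0.07, and the Odf probes had 3 of 8 above 0 and a median of -0.03. RNA of whole testis cannot tell fewer cells of a type from less RNA per cell.

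**Figure D1:**
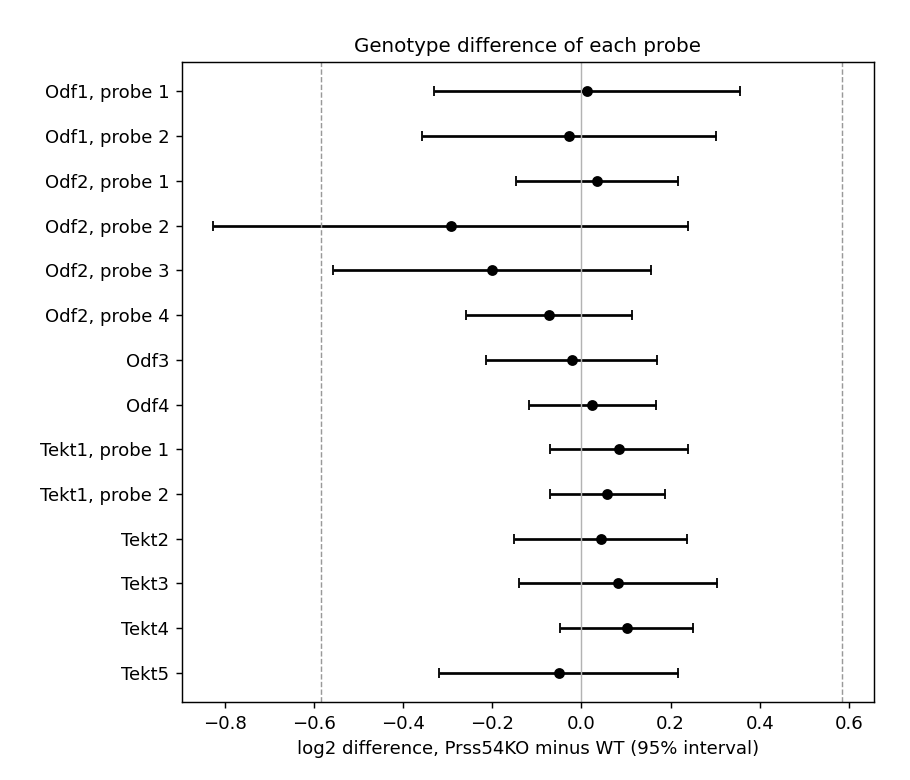
Log2 difference, Prss54KO minus WT, of each of the 14 probes on the horizontal axis, with points for the estimate and bars for limma's 95% interval (n = 3 mice per genotype); dashed lines mark a 1.5-fold change. Every interval includes 0, and the interval of Odf2 probe 2 alone, from -0.83 to 0.24, reaches past a dashed line.

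Odf1 encodes a main structural protein of the outer dense fibres that resembles small heat shock proteins. Its probes lie at chr15:38149190-38149249 (probe 1) and chr15:38149107-38149165 (probe 2) on the plus strand of mm9, with 24 bases between them, so they read neighbouring stretches of the same transcript. Probe 1 read 22055, 21497 and 16211 in Prss54KO replicates 1, 2 and 3, against 18764, 18168 and 21991 in WT replicates 1, 2 and 3. Prss54KO replicate 3 was the lowest of the 6 mice, and Prss54KO replicates 1 and 2 lay among the highest beside WT replicate 3. The log2 difference was 0.01 (SE 0.14, 95% interval -0.33 to 0.36). Probe 2 had the same low mouse, with 3800.3, 3719 and 2752 in Prss54KO, against 3250.3, 3463 and 3664 in WT. Its log2 difference was -0.03 (SE 0.14, 95% interval -0.36 to 0.30). Relative to the WT mean, Prss54KO replicate 3 stood at -0.27 on probe 1 and -0.33 on probe 2.

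The low Odf1 level of Prss54KO replicate 3 went with a low median of the spermatid markers in that mouse. The markers were not uniform, as Prm2, Tnp1 and Spaca1 lay above their WT means there and the other spermatid markers below. The median of the 9 spermatid markers relative to the WT mean was 0.06, 0.06 and -0.12 in Prss54KO replicates 1, 2 and 3, against -0.04, -0.03 and 0.07 in WT replicates 1, 2 and 3. Their summed signal was 1901460 to 2103260 in Prss54KO and 1958450 to 2089070 in WT, so the genotypes overlapped. Whether spermatid content has a part in the Odf1 values was not tested. Without Prss54KO replicate 3 the Odf1 differences were 0.15 and 0.12, neither past the threshold, and on slide 2 alone they were -0.01 and 0.04.

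Odf2 encodes an outer dense fibre protein that also occurs, as the form called cenexin, on the distal appendages of centrioles, so its transcripts are not limited to sperm. Its 4 probes read separate stretches of the locus on the plus strand of mouse chromosome 2 and gave the widest spread of differences among these genes. The first 30 of the 60 bases of each Odf2 probe are shown because the probes that gave different values are different stretches of this gene, and capitals mark AATAAA, the letters of the common polyadenylation signal.
Odf2 probe 1 (A_51_P266987): cacttcctttttcttggctgccgatttctg
Odf2 probe 2 (A_51_P174228): gctacgaatgtcatgaaAATAAAtacattg
Odf2 probe 3 (A_52_P618197): ccacattaggtaccagattttgaaatccct
Odf2 probe 4 (A_51_P113162): ggctgaAATAAAaatgctcccttaatatta
Probe 4 lies at chr2:29750521-29750580 and probe 1 at chr2:29777979-29778038, with 27398 bases between them (mm9, plus strand). Probe 3 follows 8368 bases further on at chr2:29786407-29786466, and probe 2 lies 298 bases beyond it at chr2:29786765-29786824. The array assigns probe 1 to the transcript NM_013615, probes 2 and 3 to NM_001177659 and probe 4 to the cDNA clone AK086843. AATAAA stands in 4 of the 14 probes, those of Odf4 and Tekt4 besides the 2 of Odf2, and in 4.78% of all 41174 probes. No probe of these genes shares 20 bases in a row with another probe of the array.

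On probe 1 of Odf2 the genotypes overlapped closely. It read 336165, 359634 and 322046 in Prss54KO replicates 1, 2 and 3, against 357268, 320760 and 315471 in WT replicates 1, 2 and 3. Prss54KO replicate 2 and WT replicate 1 were the high mice, and the log2 difference was 0.04 (SE 0.07, 95% interval -0.15 to 0.22).

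The other Odf2 probes shared 1 high mouse, WT replicate 1. Probe 2 read 1962, 2011 and 2278 in Prss54KO, against 3524, 2464 and 1907 in WT, where WT replicate 1 was the highest and WT replicate 3 the lowest of all 6 mice. Its log2 difference of -0.29 (SE 0.22, 95% interval -0.83 to 0.24) was the furthest from 0 of the 14, with limma's unadjusted p at 0.227. Probe 3 read 836, 824 and 952 in Prss54KO, against 1234, 949.7 and 849 in WT, a log2 difference of -0.20 (SE 0.15, 95% interval -0.56 to 0.16). WT replicate 1 was again the highest, and the other 5 mice lay close together. Probe 4 read 817, 824 and 778 in Prss54KO, against 917, 857 and 774 in WT, a log2 difference of -0.07 (SE 0.08, 95% interval -0.26 to 0.11). Here too WT replicate 1 was highest and WT replicate 3 lowest, and on slide 2 alone the difference was 0.08.

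The values of probes 2, 3 and 4 moved when single WT mice were left out and when slide 2 was taken alone. Without WT replicate 1 the log2 difference of probe 2 was -0.06, and without WT replicate 3 it was -0.50, with an unadjusted p of 0.0297 and an adjusted p of 0.735 in limma. On slide 2 alone, which holds Prss54KO replicates 1 and 2 and WT replicate 3, the difference was 0.06. The slide as a fixed block gave the same 0.06, because slides 1 and 3 hold a single genotype each. Both fits thus set Prss54KO replicates 1 and 2 against WT replicate 3 alone, so slide and mouse cannot be told apart there. With the slide as a random block the difference was -0.24. Probe 3 was at -0.05 without WT replicate 1, -0.32 without WT replicate 3 and -0.03 on slide 2 alone. Probe 4 was at -0.02 without WT replicate 1 and -0.14 without WT replicate 3. WT replicate 1 also had the highest level of 3 of the 4 red blood cell markers, those of globins, but not of Alas2, an enzyme gene of haem synthesis in red cells. The median of the 4 markers relative to the WT mean was -0.59, -0.28 and -0.62 in Prss54KO replicates 1, 2 and 3, against 0.73, -0.70 and 0.00 in WT replicates 1, 2 and 3. Their summed signal was 17628 to 23597 in Prss54KO and 17227 to 43908 in WT. The part of blood in the Odf2 values was not tested.

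Whether the probes of a gene differed in their response was looked at as the difference between their genotype differences, over 8 pairs with exact permutation over the 6 mice. None passed after adjustment (adjusted p 0.533 to 0.900, two-sided, where the smallest raw p that 3 against 3 mice allow is 0.1). For Odf2 probe 1 over probe 2 the value was 0.33 on the log2 scale (95% interval -0.31 to 0.97, exact permutation p 0.2). For probe 1 over probe 4 it was 0.11 (95% interval -0.01 to 0.23, exact permutation p 0.1). The Odf1 pair gave 0.04 (95% interval -0.12 to 0.20) and the Tekt1 pair 0.03 (95% interval -0.13 to 0.19), narrow ranges compared with those of probe 2.

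**Figure D2:**
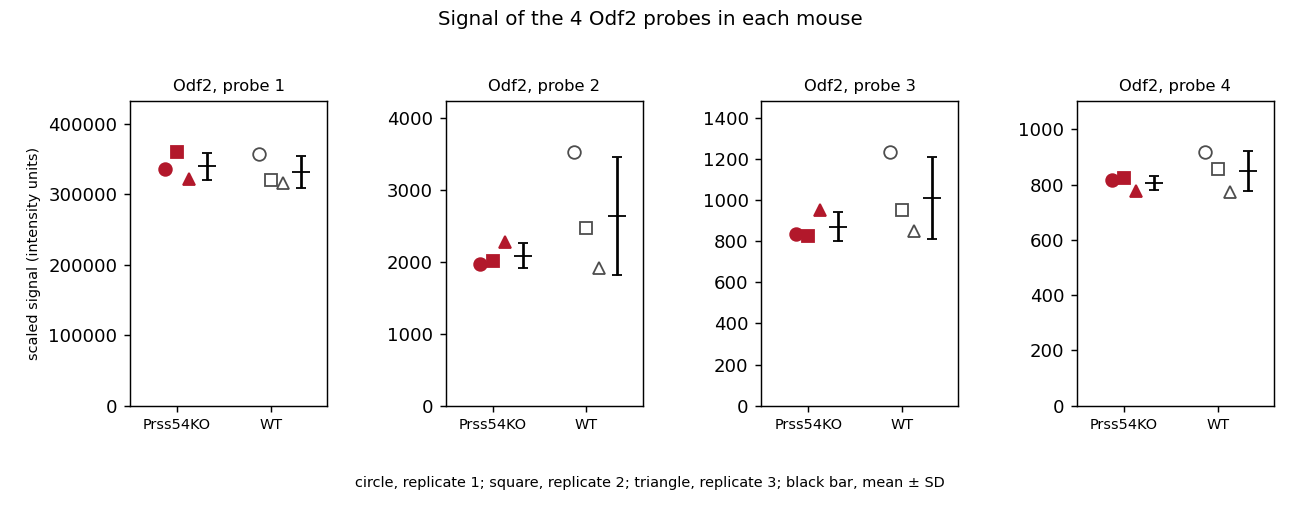
Scaled signal in intensity units of the 4 Odf2 probes in each mouse, Prss54KO left and WT right, each panel with its own axis from 0; symbols give the replicate and bars the mean ± SD (n = 3). WT replicate 1 is the highest of the 6 mice on probes 2, 3 and 4, while on probe 1 Prss54KO replicate 2 is.

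Odf3, whose protein is found along the sperm tail with the outer dense fibres, did not separate the genotypes. Its probe, at chr7:148036775-148036834 on the plus strand of mm9, read 70988, 76453 and 65311 in Prss54KO replicates 1, 2 and 3, against 70963, 68626 and 76232 in WT replicates 1, 2 and 3. The highest and the lowest mouse were both Prss54KO, and the log2 difference was -0.02 (SE 0.08, 95% interval -0.21 to 0.17).

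Odf4, a testis gene whose protein sits with the outer dense fibres and has membrane-spanning stretches, had the smallest standard error of the 8 Odf probes. Its probe is placed at chr11:68735158-68735186 on the minus strand of mm9, a span of 29 positions for a 60-base probe, so the listed place covers part of the probe only. It read 104339, 99826 and 94042 in Prss54KO, against 96158, 98389 and 98415 in WT. The WT mice lay within the range of the Prss54KO mice, whose replicates 1 and 3 were the highest and the lowest. The log2 difference was 0.02 (SE 0.06, 95% interval -0.12 to 0.17).

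**Figure D3:**
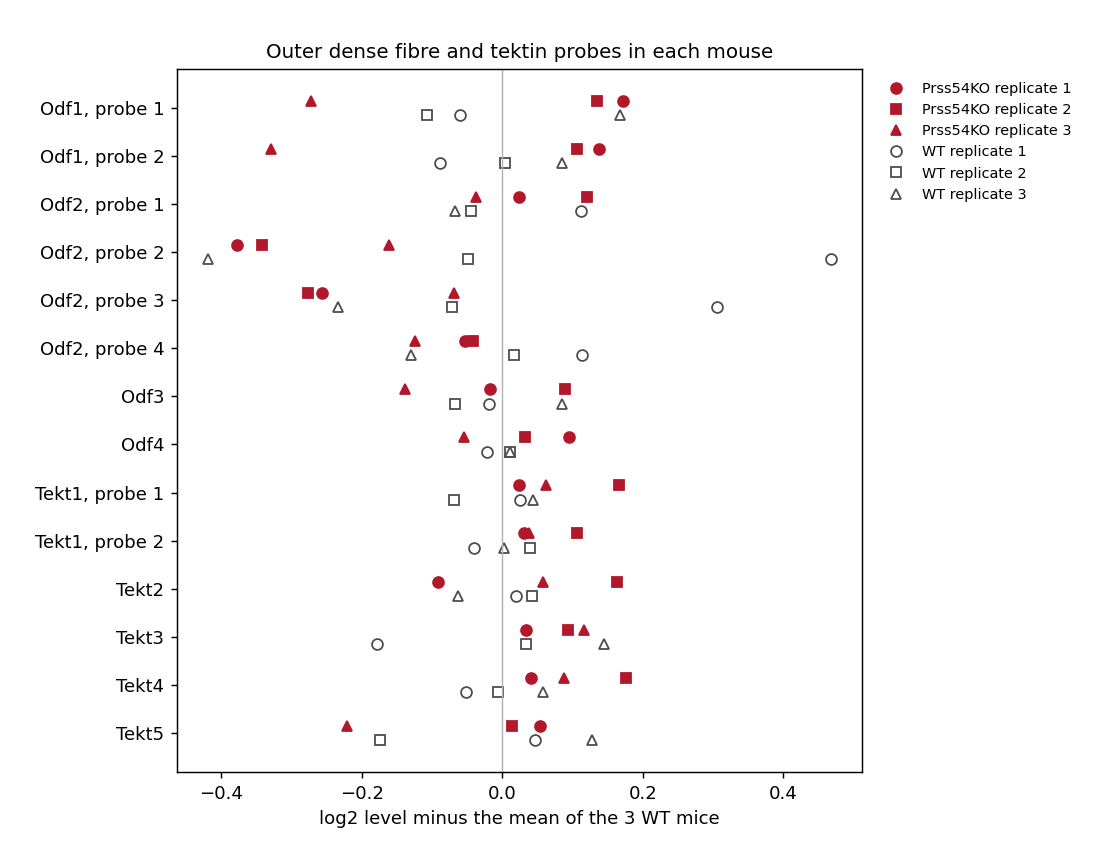
Log2 level of each of the 14 probes minus the mean of the 3 WT mice, on the horizontal axis, for each mouse, with filled symbols for Prss54KO above open symbols for WT in every row. The genotypes overlap in every row; Prss54KO replicate 3 lies lowest on both Odf1 probes and WT replicate 1 lies furthest right on Odf2 probes 2 and 3.

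The promoters of these genes were searched for motifs known from cilia and spermatid genes. RefSeq windows of GRCm38.p6, from 250 bases before to 50 after a start, were available for 8 of the 9 genes, in 14 windows. They were searched on both strands for GTTGC, an arm of the X-box that RFX factors bind in genes of cilia, and for the spaced palindrome GTTGCNNNGCAAC, which itself holds 2 such arms. They were also searched for TGACG and TGACGTCA, an arm and the full site bound by the CREB and CREM family, whose member CREM acts in spermatids. A single window each of Tekt1, Tekt2 and Tekt4 is shown because it holds the arms as a close pair. Capitals mark GTTGC or GCAAC with the bases between the arms of a palindrome.
Tekt1 (chr11:72361833-72362132, minus strand): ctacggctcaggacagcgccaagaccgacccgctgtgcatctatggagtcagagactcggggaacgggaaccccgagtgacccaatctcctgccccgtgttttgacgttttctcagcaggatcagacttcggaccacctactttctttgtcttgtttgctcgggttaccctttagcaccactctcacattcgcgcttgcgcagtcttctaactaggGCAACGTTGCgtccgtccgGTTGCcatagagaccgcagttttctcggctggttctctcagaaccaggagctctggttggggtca
Tekt2 (chr4:126325597-126325896, minus strand): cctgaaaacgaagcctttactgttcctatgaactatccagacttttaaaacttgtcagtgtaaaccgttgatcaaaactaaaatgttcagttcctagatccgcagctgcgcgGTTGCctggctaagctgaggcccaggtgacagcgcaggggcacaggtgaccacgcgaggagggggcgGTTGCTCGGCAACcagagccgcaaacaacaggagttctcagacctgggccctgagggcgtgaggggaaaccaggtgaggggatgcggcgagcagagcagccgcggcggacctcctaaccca
Tekt4 (chr17:25471340-25471639, plus strand): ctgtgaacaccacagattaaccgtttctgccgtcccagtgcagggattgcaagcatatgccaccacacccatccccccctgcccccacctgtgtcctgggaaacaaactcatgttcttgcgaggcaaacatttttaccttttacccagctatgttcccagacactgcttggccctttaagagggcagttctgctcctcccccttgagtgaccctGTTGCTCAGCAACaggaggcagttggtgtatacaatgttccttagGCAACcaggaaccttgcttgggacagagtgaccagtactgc
The spaced palindrome stands 71 to 59 bases before the start of this Tekt2 window and 36 to 24 bases before that of Tekt4, and it occurs in 0.225% of all 32851 windows. In this Tekt1 window the arms stand back to back, 34 to 30 and 29 to 25 bases before the start, with another at 15 to 11. The other Tekt1 window holds a lone GCAAC, 101 to 97 bases before its start. A further Tekt2 window holds the same palindrome 29 to 17 bases before its start, and the remaining Tekt2 window holds no arm. GTTGC was found for Odf3 and all 5 tektin genes, 6 of the 8 genes, against 38.6% of all 27025 genes with a window. TGACG was found for Odf2 and Tekt1, against 23.0% of all genes, and TGACGTCA for none of the 8. These are matches of letters only, and their motifs were chosen after the windows had been seen.

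Tekt1, a tektin of cilia and of sperm tails, had a level in Prss54KO mice close to that of WT mice on both probes. Probe 1, at chr11:72158224-72158282 on the minus strand of mm9, read 116340, 128412 and 119448 in Prss54KO replicates 1, 2 and 3, against 116439, 109064 and 117986 in WT replicates 1, 2 and 3. The log2 difference was 0.08 (SE 0.06, 95% interval -0.07 to 0.24), and Prss54KO replicate 2 was the highest mouse. Probe 2, whose 60 bases span 6105 bases of the genome at chr11:72159255-72165359 and so are not contiguous there, read 41775, 44053 and 41995 in Prss54KO, against 39768, 42029.9 and 40957 in WT. Its log2 difference of 0.06 had the smallest standard error of the 14, 0.05 (95% interval -0.07 to 0.19).

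Tekt2 is needed in mice for the normal beating of sperm tails and cilia. Its probe, at chr4:125999430-125999489 on the minus strand of mm9, read 79722, 95092 and 88414 in Prss54KO, against 86106, 87499.7 and 81342 in WT. Prss54KO replicates held both the highest and the lowest place, and the log2 difference was 0.04 (SE 0.08, 95% interval -0.15 to 0.24).

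Tekt3, whose loss in mice impairs sperm movement, is read by a probe that spans 4663 bases on the plus strand of mm9, at chr11:62887001-62891663. It read 1551, 1617 and 1643 in Prss54KO, against 1339, 1551 and 1675 in WT. WT replicates 1 and 3 were the lowest and the highest mouse. The log2 difference was 0.08 (SE 0.09, 95% interval -0.14 to 0.30), and on slide 2 alone it was -0.08.

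Tekt4, which in rat sperm has been located with the outer dense fibres and whose loss in mice impairs sperm movement, had the smallest unadjusted p of the 14. Its probe, at chr17:25613464-25613523 on the plus strand of mm9, read 79481, 87312 and 82064 in Prss54KO replicates 1, 2 and 3, against 74563, 76915 and 80371 in WT replicates 1, 2 and 3. Prss54KO replicates 2 and 3 lay above all WT mice, and Prss54KO replicate 1 lay below WT replicate 3. The log2 difference was 0.10 (SE 0.06, 95% interval -0.05 to 0.25), with limma's unadjusted p at 0.148 and adjusted p at 0.999. The exact permutation p was 0.2.

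Tekt5, a tektin known mainly from the male germ line and the sperm tail, was the single tektin with a difference below 0. Its probe, at chr16:10358383-10358442 on the minus strand of mm9, read 11372, 11063 and 9407 in Prss54KO, against 11321, 9712 and 11972 in WT. Prss54KO replicate 3 was the lowest mouse and WT replicate 3 the highest. The log2 difference was -0.05 (SE 0.11, 95% interval -0.32 to 0.22).

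By their medians the tektin and the Odf genes shared their highest mouse. With the brightest probe of each gene, the median of the 5 tektin genes relative to the WT mean was 0.03, 0.16 and 0.06 in Prss54KO replicates 1, 2 and 3, against 0.02, -0.01 and 0.06 in WT replicates 1, 2 and 3. The median of the 4 Odf genes was 0.06, 0.11 and -0.10 in Prss54KO, against -0.02, -0.06 and 0.05 in WT. Prss54KO replicate 2 thus had the highest median in both groups. It also did, at 0.06, for the further genes listed below as related to the doublets and dense fibres. Not every gene followed, as Odf1 and Odf4 were highest in Prss54KO replicate 1 and Tekt3 and Tekt5 in WT replicate 3. Prss54KO replicate 3 had the lowest median of the Odf genes, though Odf2 was lowest in WT replicate 3. Among the tektins, Prss54KO replicate 3 was lowest for Tekt5. A difference between the groups was not tested. Prss54KO replicate 2 was the highest mouse on 6 of the 14 probes and Prss54KO replicate 3 the lowest on 5.

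**Figure D4:**
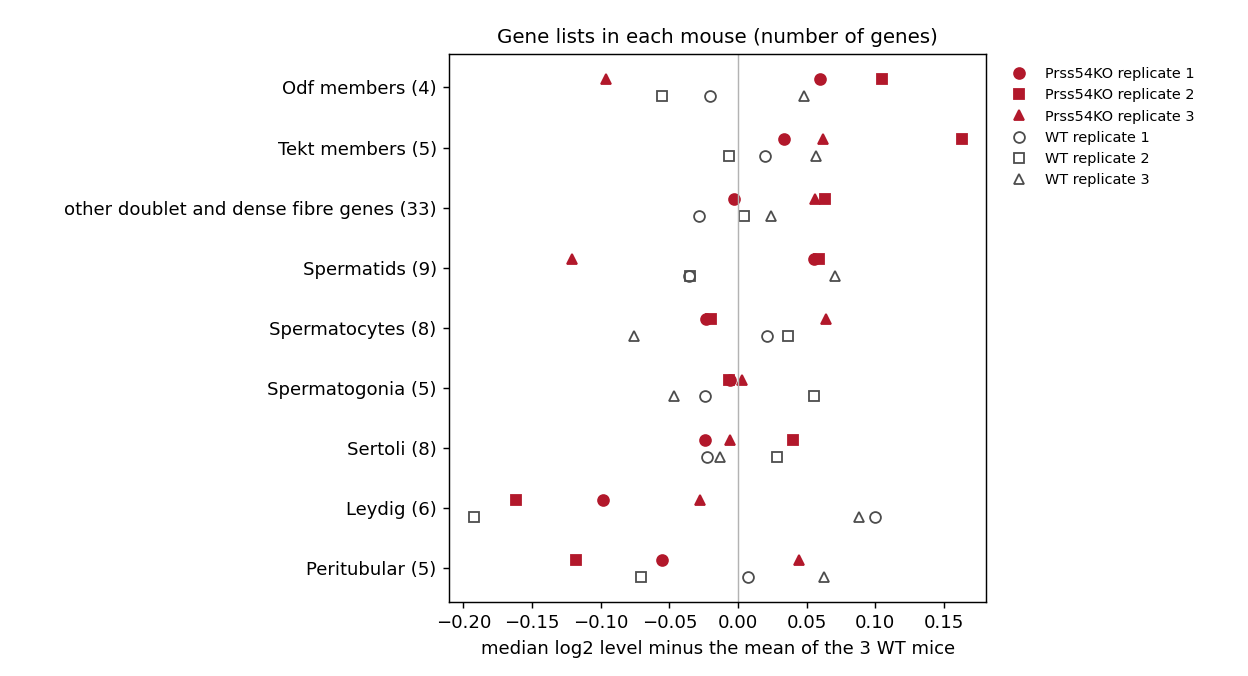
Median log2 level of gene lists minus the mean of the 3 WT mice, on the horizontal axis, for each mouse, with filled symbols for Prss54KO above open symbols for WT and the number of genes in brackets. Prss54KO replicate 3 is lowest for the Odf genes at -0.10 and for spermatid markers at -0.12, but not for the tektins.

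Further genes, listed here as related to the doublets and dense fibres and not all of them parts of these, gave differences of a similar size. A list of 56 further gene names was looked for, in which some genes stand under both an old and a new name. From it, 33 genes were on the array and tested, 10 of them matched through a synonym. With limma, 0 passed the adjusted threshold in either direction and 0 had an unadjusted p under 0.05, and their differences ran from -0.12 to 0.14 with a median of 0.04. Of these, 25 lay above 0 and 8 below, against 52.8% above 0 of all probes. The smallest p in the group belonged to Fam154b, a relative of a microtubule-stabilizing protein of the axoneme, which read 22012, 24511 and 22843 in Prss54KO, against 21424, 21000.4 and 22259 in WT, a log2 difference of 0.10 (SE 0.06). Efhb, whose protein lies inside the doublets, differed by 0.13 (SE 0.09). Ccdc42, needed in mice to form the sperm tail, differed by 0.07 (SE 0.05), and so did Ccdc38, also needed in mice for the tail, at 0.07 (SE 0.05).

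Among the genes compared, those whose pattern over the 6 mice lay nearest to the mean pattern of the 9 genes were Sp3, Arrdc5, Tmf1, Fam209 and Ccdc67. Only genes with a usual symbol and a range at least that of the mean pattern were compared, so flatter genes were not ranked. The measure was the root mean square difference between centred log2 levels, which was 0.013 for Sp3, 0.015 for Arrdc5, 0.017 for Tmf1, 0.019 for Fam209 and 0.019 for Ccdc67 among 11349 genes compared. The mean pattern itself spanned 0.154 on the log2 scale, from -0.06 in Prss54KO replicate 3 to 0.09 in Prss54KO replicate 2.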

How the data were processed

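Spot brightness on a linear intensity scale was taken from the deposited scanner files, which per the file headers came from Agilent Feature Extraction version 10.7.3.1 (version 10.7 per the submitters' processing notes). The processed signal already carries that software's background treatment. Positions are in mm9, per the file headers, and without an mm9 annotation no exon or UTR is named. Gene names date from the design of the array and can be old. The deposited series table of log2 values has identical quantiles in its 6 columns. How it was made is not stated in the labels, and it served as an alternative.

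A level was log2 processed signal minus the 75th percentile of the array. Outlier spots (86 to 142 per array) were dropped, and the fit kept the 28913 probes that 3 or more of the 6 arrays measured well above background. Per array, 66.2% to 74.8% of the 43379 gene spots passed that mark, and 0 were saturated. The number of arrays limits the precision. Genotypes were compared by limma 3.58.1 (R 4.3.3), two-sided, using lmFit with eBayes and adjusting p-values over all probes by Benjamini and Hochberg. The code was tested on simulated data. SE and intervals are the moderated ones of limma, except that the interval of a difference between probes is over mice.

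The genes, marker lists and tests were chosen with earlier results of these data known. The text names Prss54, the 9 genes with every probe, genes of the doublet and dense fibre list past the threshold (made up to 4 by smallest p), and the 5 nearest patterns. Markers named singly were picked after their values were seen. Promoter windows are from RefSeq. The alternatives changed the scaling (quantile, median), the background (normexp, offset 50), the filter (none, all 6 arrays), the probes (1 per gene) or the input (the authors' table). Others fitted the slide (fixed block, random block, slide 2 alone), a replicate block, an intensity trend with robust variance or array weights, or left out each mouse.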

Additional observations from a re-analysis of the deposited data

How the results depend on the processing

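No outer dense fibre or tektin probe passed the adjusted threshold under any of 19 alternatives. Of 261 values, 232 kept their direction and 29 reversed, all among differences that were not past the threshold, and 4 of the 14 probes never reversed. These counts are no measure of stability. The filters, 1 probe per gene, the replicate block and the trend with robust variance left each difference unchanged, so it could not reverse there. The slide as a fixed block and slide 2 alone gave identical differences, so each such reversal is counted under both. Odf1 probe A_52_P294490 was -0.0078 with median scaling, -0.0014 with the authors' table, -0.0067 with the slide as a random block and -0.014 with it as a fixed block or alone. Odf1 probe A_51_P461801 was 0.037 with the slide as a fixed block or alone and 0.035 with array weights, where Odf3 was 0.015. The fixed block or slide 2 alone also gave 0.059 for Odf2 probe A_51_P174228, 0.083 for A_51_P113162 and -0.081 for Tekt3. The cause was not tested. The count of all probes past the threshold was 1 with normexp, with the filter on all 6 arrays and with the slide as a fixed block, and 2 with the trend and robust variance, against 0. Prss54 passed at -1.54 with normexp, at -1.57 with that filter and at -1.57 with the trend. Its adjusted p in limma ranged from 0.00459 to 0.9998 over all alternatives.

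With 1 mouse left out, Prss54 ran from -1.66 to -1.47, the median of the 14 probes from -0.03 to 0.06, and that of the other doublet and dense fibre genes from 0.02 to 0.05. Odf1 ran from -0.068 to 0.15 and from -0.11 to 0.12 on its probes, Odf2 probe A_51_P266987 from -0.0071 to 0.091, A_51_P174228 from -0.50 to -0.060, A_52_P618197 from -0.32 to -0.048 and A_51_P113162 from -0.14 to -0.016, Odf3 from -0.078 to 0.036 and Odf4 from -0.011 to 0.064. Tekt2 ran from -0.017 to 0.11, Tekt3 from -0.0077 to 0.15 and Tekt5 from -0.14 to 0.033. The count at an unadjusted p under 0.05 ran from 0 to 1, the 1 being Odf2 probe A_51_P174228 without WT replicate 3. Replicate numbers showed no sign of pairing the mice, though so few correlations cannot exclude it. Deviations of same-numbered mice correlated at -0.04, 0.02 and -0.15 for numbers 1, 2 and 3. Those of mice with different numbers ran from -0.14 to 0.16. A replicate block left the median of the 14 probes at 0.02 and the count past the threshold at 0. The median of the other doublet and dense fibre genes was 0.009 with the slide as a fixed block or slide 2 alone. It was 0.016 with median scaling and 0.053 with array weights.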
